A study of Mus musculus with 16 samples.

Results

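The genes described here are the secreted Wnt ligands, their Frizzled and LRP receptors, the Dickkopf and Sfrp antagonists, and the feedback target Axin2 with the transcription factors Tcf7 and Lef1, in mouse neurons depleted of the nuclear pore protein Nup153. They were chosen by gene symbol alone, and 37 of the 26371 symbols that the study's count tables share matched: 16 Wnt ligands, 10 Frizzled receptors, 2 LRP co-receptors, 6 secreted antagonists, and Axin2, Lef1 and Tcf7. Primary cortical neurons came from C57/BL6 embryos of embryonic day 17.5 to 19.5, each replicate being the pooled cortices of 1 litter, and the labels name no engineered allele. An adeno-associated virus (AAV) with a short hairpin RNA was applied from day 8 to day 13 in vitro in every group. Basal cultures received shNup153-1 (2 libraries used), shNup153-2 (2 libraries used) or the control hairpin shControl (4 libraries), and cultures silenced with the sodium channel blocker tetrodotoxin (TTX, 1 to 2 µM, 24 hours) and the NMDA receptor antagonist D-AP5 (100 µM, 6 hours) received shNup153-2 or shControl (3 libraries each). According to the labels, knockdown was checked before sequencing and only samples with enough of it were processed. Whole cultures were measured, so fewer cells of a type and less RNA per cell cannot be told apart.

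Wnt proteins are lipid-modified ligands that bind Frizzled receptors. With the co-receptors Lrp5 or Lrp6, Frizzled binding blocks the destruction of beta-catenin, which then acts with Tcf and Lef factors on target genes such as Axin2; other Wnt signals run through Frizzled receptors without beta-catenin and act on the cytoskeleton and calcium. Sfrp proteins bind Wnt ligands outside the cell, and Dickkopf proteins such as Dkk2 bind LRP co-receptors. In cortical neurons the pathway is known for its part in dendrite growth, axon guidance and synapse formation.

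Library totals ran from 26863535 to 56299817 counts. Levels are CPM, counts scaled to the size of each library and with TMM factors over the part of the table that is in register in every library. Nup153 itself stood at 17.3 and 28.2 CPM in basal shNup153-1 cultures and at 13.4 and 11.5 CPM in basal shNup153-2 cultures, against 94.4, 54.0, 78.4 and 57.5 CPM in basal shControl cultures. In silenced cultures it was 10.5, 13.3 and 9.37 CPM with shNup153-2, against 64.0, 51.6 and 61.5 CPM with shControl. The log2 fold changes of Nup153 were −1.67, −2.52 and −2.40 for these comparisons (edgeR adjusted p = 0.0122, 0.00496 and 0.00525). The basal shControl libraries were unlike each other: chi-square statistics per degree of freedom were 39.9 for replicates 2 and 4 and 66.5 for replicates 1 and 3, but 114 to 224 for pairs across these. Summed levels of the neuronal markers were 4620 to 5650 CPM with shNup153-1, 5100 to 6450 CPM with shNup153-2 and 3960 to 6920 CPM with shControl at basal state.

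In basal shControl cultures levels per length ranged from 15.9 ± 6.57 CPM per kb of exon for Fzd3 to 0.00484 ± 0.00604 CPM per kb for Lef1 (SD, n = 4). Fzd3, a Frizzled receptor needed for axon tract formation, was followed by Dkk3 at 8.15 ± 2.37, Wnt7b at 7.50 ± 2.20, Fzd1 at 5.70 ± 0.692, Lrp6 at 5.03 ± 1.69 and Sfrp1 at 4.72 ± 1.25 CPM per kb. Neighbours in this order, from Dkk3 down to Sfrp1, differed by less than the larger of their SDs. Wnt7b was the ligand with the highest level per kb, ahead of Wnt7a, Wnt9a and Wnt4 at 2.88, 2.35 and 2.08 CPM per kb, which differed from each other by less than the larger of their SDs. At the low end, Wnt1, Wnt9b, Sfrp5 and Lef1 reached at most 9 counts in any library and were tested in no comparison. Of the 37 genes, 33 were tested in at least 1 comparison, which required 10 or more counts in at least 2 libraries. Fzd10 has no usable value with shNup153-1, since its row lies where the columns of that hairpin are out of register. Wnt3a, Wnt8a, Wnt8b, Dkk1 and Dkk4 are listed in the silenced table only, with at most 8 counts in a library.

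**Figure D1:**
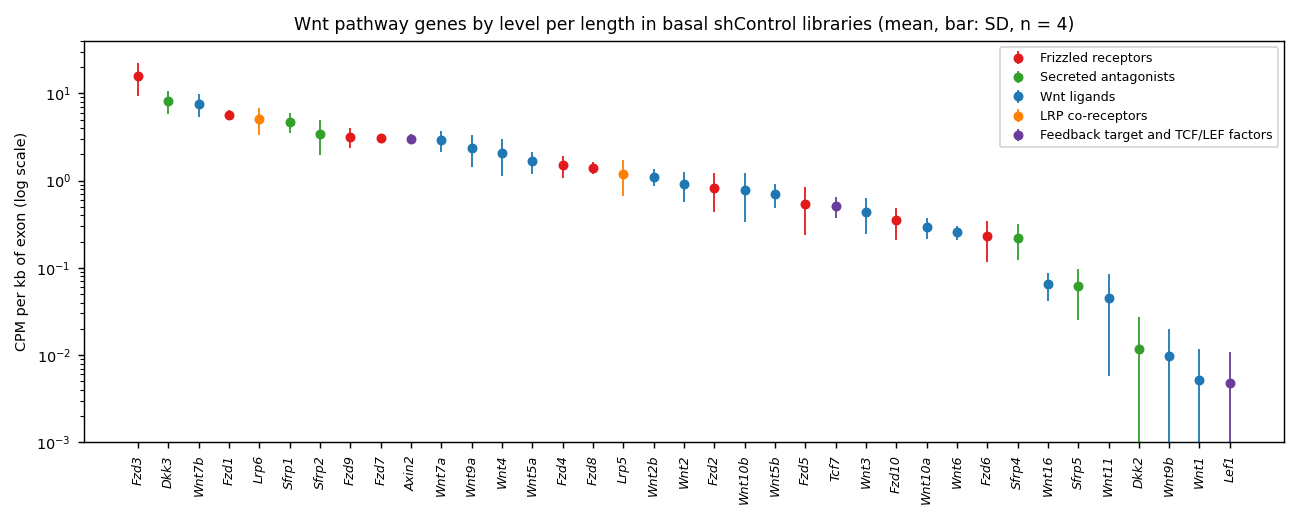
Mean CPM per kb of exon (log axis, bars SD, n = 4) of the 37 genes in basal shControl libraries, coloured by role. Fzd3 stands at 15.9 and Lef1 at 0.00484 CPM per kb.

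The first question was how these transcripts responded to Nup153 knockdown in basal neurons. With shNup153-2, Wnt7b, Wnt7a and Wnt4 and the antagonist Sfrp4 rose, Dkk2 passed under a limit given with its counts, and no gene of the group fell by the main test. With shNup153-1, Wnt7b and Sfrp4 rose, whereas Wnt2b, Wnt10b, Wnt2 and the receptor Fzd1 fell, and Wnt6 passed under a limit given with its values. Tests are edgeR's quasi-likelihood tests, with p-values adjusted by Benjamini-Hochberg across every tested gene, and a gene passed below 0.05. For shNup153-2 against shControl, 5 of 33 tested genes passed (15.2%), beside 9.10% of the 20191 genes tested in all; 5.64% of all genes rose and 3.46% fell. Their median log2 fold change was 0.38, against −0.03 over all genes, and 27 of the 33 were positive. Without Dkk2, which reached 10 counts in the shNup153-2 libraries only, 4 of 32 passed (12.5%). For shNup153-1 against shControl, 7 of 32 passed (21.9%), beside 13.3% of 14705 genes; 6.41% of all genes rose and 6.94% fell. The median log2 fold change was −0.42, against −0.02 over all genes. Without the genes that did not reach 10 counts in both groups (Wnt6, Wnt11, Wnt16 and Dkk2), 6 of 28 passed (21.4%), and the median log2 fold change was −0.36. These 2 comparisons share the shControl libraries, so their values are given side by side.

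**Figure D2:**
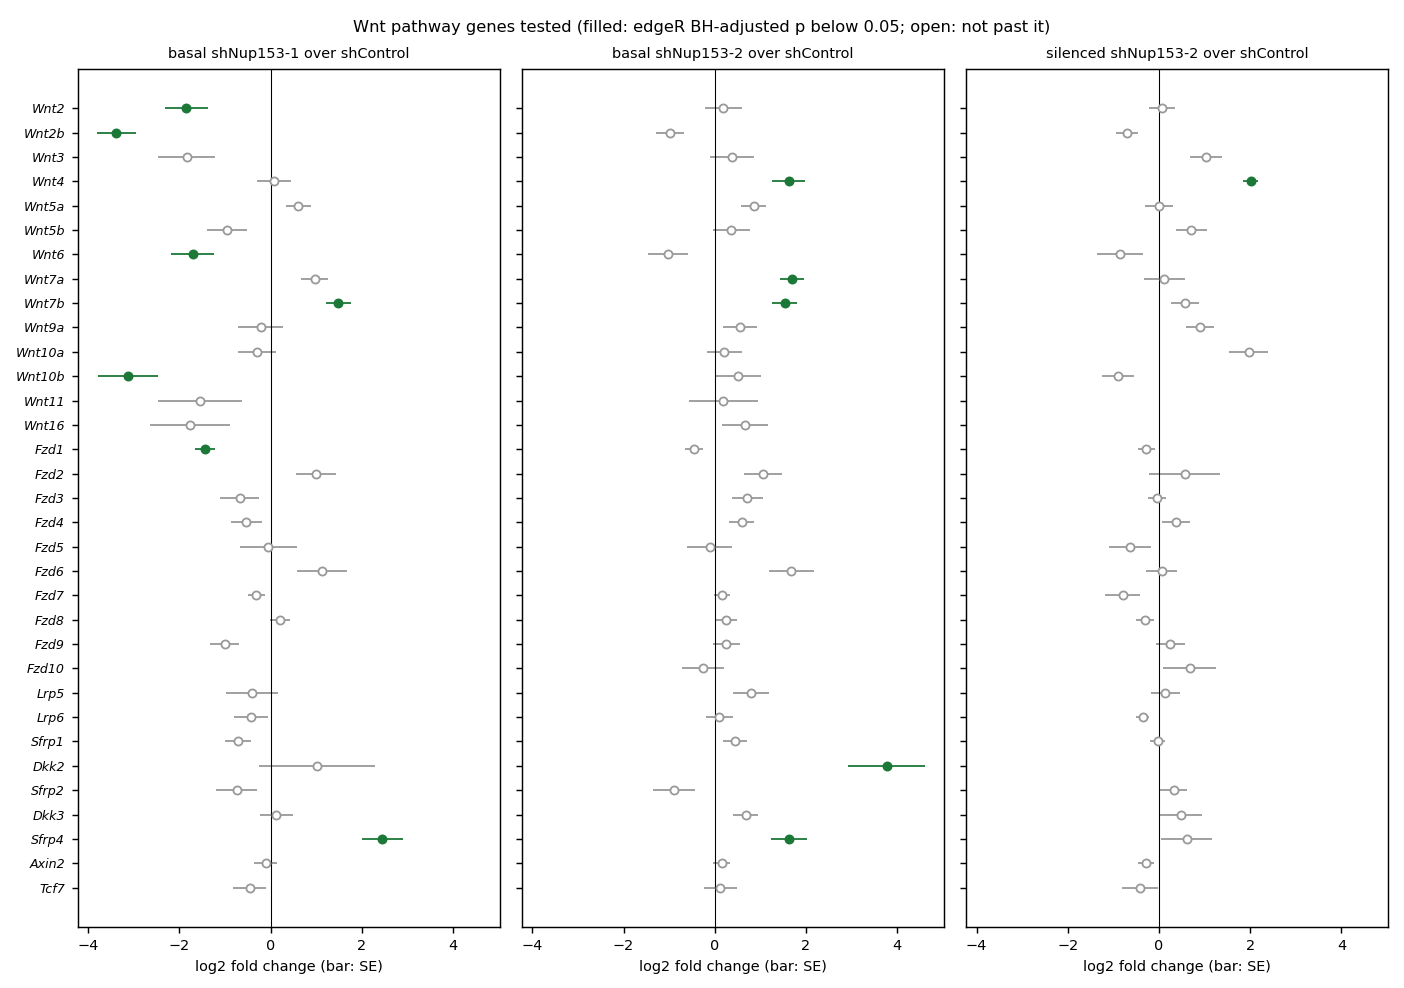
Log2 fold changes (knockdown over shControl, bars SE) of the tested genes in basal shNup153-1, basal shNup153-2 and silenced shNup153-2 cultures, with filled points past an adjusted p of 0.05. Wnt7b and Sfrp4 are filled and to the right of 0 for both hairpins at basal state, and Wnt4 is filled in both states with shNup153-2.

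Wnt7b, a ligand of the canonical pathway with a known part in dendrite growth, was the most abundant ligand in CPM as well. It stood at 118 and 91.8 CPM with shNup153-1 and at 115 and 97.9 CPM with shNup153-2, against 34.1, 45.6, 22.6 and 44.6 CPM with shControl. Every knockdown library lay above every shControl library. The log2 fold change was 1.49 (SE 0.27, edgeR adjusted p = 0.00996) with shNup153-1 and 1.53 (SE 0.28, edgeR adjusted p = 0.0181) with shNup153-2. Of the exon bases of Wnt7b, 6.6% overlap the antisense gene AU022754. The libraries were strand-specific, but how featureCounts treated strand is not stated, so reads of that gene cannot be separated there.

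Wnt7a, the close paralogue of Wnt7b that acts on presynaptic assembly, had 28.0 and 31.4 CPM with shNup153-2, against 11.2, 6.0, 8.45 and 11.0 CPM with shControl. The shNup153-2 libraries lay above all others, and the log2 fold change was 1.69 (SE 0.26, edgeR adjusted p = 0.0103). With shNup153-1 Wnt7a had 13.8 and 22.7 CPM, also above every shControl library, with a log2 fold change of 0.97 (SE 0.30) that did not pass (edgeR adjusted p = 0.0646). The antisense overlap of Wnt7b has no counterpart at Wnt7a or Wnt4.

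Wnt4, a ligand that can signal without beta-catenin, rose with shNup153-2. It had 27.3 and 26.6 CPM with shNup153-2, against 6.08, 14.3, 5.74 and 8.80 CPM with shControl, and the groups did not overlap (log2 fold change 1.62, SE 0.36, edgeR adjusted p = 0.0319). With shNup153-1 it had 7.25 and 11.2 CPM, inside the shControl range (log2 fold change 0.07, SE 0.37, edgeR adjusted p = 0.93). Tested directly, shNup153-2 over shNup153-1 gave a log2 difference of 1.56 (SE 0.44) for Wnt4, which did not pass (edgeR adjusted p = 0.0759).

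Promoter windows of 250 bases before to 50 after the annotated start were taken from RefSeq (GRCm38.p6, the assembly that mm10 names) and 25 of the 37 genes matched, with 32 windows in all. They are shown for 2 ligands that rose with shNup153-2 and 1 that fell with shNup153-1, each read 5′ to 3′ on the gene's strand, with matches to the EGR motif GCGNGGGCG, the site letters of the activity-regulated Egr factors, in capitals on either strand. Wnt4 lies at chr4:137277385-137277684 on the plus strand, Wnt7a at chr6:91411304-91411603 and Wnt2b at chr3:104961660-104961959 on the minus strand.
Wnt4: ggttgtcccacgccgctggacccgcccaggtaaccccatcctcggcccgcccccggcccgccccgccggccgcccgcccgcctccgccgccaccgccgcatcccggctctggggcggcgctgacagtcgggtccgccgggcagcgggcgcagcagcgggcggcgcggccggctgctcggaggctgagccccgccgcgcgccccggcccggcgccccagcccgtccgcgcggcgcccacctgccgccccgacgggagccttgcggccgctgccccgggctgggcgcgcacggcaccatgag
Wnt7a: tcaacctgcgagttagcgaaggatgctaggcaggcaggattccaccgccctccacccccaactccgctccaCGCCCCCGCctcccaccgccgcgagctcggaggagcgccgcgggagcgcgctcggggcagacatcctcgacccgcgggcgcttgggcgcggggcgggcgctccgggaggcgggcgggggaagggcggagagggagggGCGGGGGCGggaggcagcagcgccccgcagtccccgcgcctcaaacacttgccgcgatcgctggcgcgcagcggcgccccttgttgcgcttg
Wnt2b: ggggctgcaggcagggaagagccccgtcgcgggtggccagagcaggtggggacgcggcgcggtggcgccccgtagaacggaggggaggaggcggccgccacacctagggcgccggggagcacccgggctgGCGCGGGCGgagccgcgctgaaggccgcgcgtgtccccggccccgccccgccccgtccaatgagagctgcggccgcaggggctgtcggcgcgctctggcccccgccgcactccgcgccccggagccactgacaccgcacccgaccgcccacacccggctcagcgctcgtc
Wnt7a held 2 matches and Wnt2b 1, while these letters were not in the Wnt4 window. Over the group, 8 of 32 windows held the EGR letters (Fzd10, Fzd4, Tcf7, Wnt2, Wnt2b, Wnt6, Wnt7a and Wnt9a), beside 5.55% of 32851 RefSeq promoters, and the median GC content of the group's windows was 67.3%, beside 52.7%. Other motifs were searched on both strands, none contained in another. The cyclic AMP response element TGACGTCA was in 0 windows (1.79% of all promoters), AP-1 TGANTCA in 1 (Wnt5b, 7.81%), TCF/LEF CTTTGAT in 2 (Wnt11 and Wnt5b, 3.73%) and the MEF2 motif (CTA and TAG spaced by 4 bases) in 0 (3.69%). The genes with an EGR match include ones that rose, fell or passed no test.

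The ligands that fell were low in abundance and fell with shNup153-1. Wnt2b, a canonical ligand of the embryonic cortical hem, had 0.305 and 0.587 CPM with shNup153-1, against 6.19, 4.46, 4.08 and 3.93 CPM with shControl. Its log2 fold change was −3.38 (SE 0.43, edgeR adjusted p = 0.00306), and it was the only gene of the group to pass with each of the 8 basal libraries left out in turn. With shNup153-2 it had 2.68 and 2.04 CPM, also below all shControl libraries, with a log2 fold change of −0.98 (SE 0.31) that did not pass (edgeR adjusted p = 0.0858).

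Wnt10b, a canonical ligand best known from mesenchymal cell fate, had 0.305 and 0.309 CPM with shNup153-1, against 3.84, 1.13, 4.05 and 1.57 CPM with shControl. Its log2 fold change was −3.13 (SE 0.66, edgeR adjusted p = 0.0181). With shNup153-2 it had 3.83 and 3.77 CPM, within the shControl range. Both shNup153-1 libraries were below all others, and shControl replicates 1 and 3 were above replicates 2 and 4.

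Wnt2 had 0.458 and 0.680 CPM with shNup153-1, against 1.80, 3.03, 1.18 and 2.20 CPM with shControl (log2 fold change −1.85, SE 0.47, edgeR adjusted p = 0.0356). Wnt6 had 0.153 and 0.186 CPM, against 0.553, 0.695, 0.544 and 0.440 CPM with shControl (log2 fold change −1.71, SE 0.47, edgeR adjusted p = 0.0445). Neither gene's groups overlapped, but both calls were close to the threshold. For Wnt6, no shNup153-1 library reached 10 counts. It entered the test through the other groups, so nothing is read from its direction. Wnt6 was lost with each of the 8 libraries left out in turn, at an adjusted p of 0.0706 to 0.211, and Wnt2 was lost without shControl replicate 1 or 4, or either library of either hairpin, at 0.0580 to 0.204.

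Set against each other, the hairpins differed for 2 of 32 genes (6.25%), both higher with shNup153-2, beside 4.33% of 14705 genes, of which 2.69% were higher and 1.64% lower with shNup153-2. Wnt10b was higher with shNup153-2 than with shNup153-1 by a log2 difference of 3.64 (SE 0.71, edgeR adjusted p = 0.0308), and Wnt2b by 2.40 (SE 0.44, edgeR adjusted p = 0.0261). For Wnt7b the difference was 0.05 (SE 0.32, edgeR adjusted p = 0.939), for Wnt7a 0.72 (SE 0.35, edgeR adjusted p = 0.235) and for Sfrp4 −0.83 (SE 0.53, edgeR adjusted p = 0.349). Both calls were lost without shNup153-1 replicate 1 or either shNup153-2 library, and Wnt10b was also lost without shNup153-1 replicate 2 and Wnt2b without shControl replicate 4. Without shControl replicate 2, 6 genes passed.

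**Figure D3:**
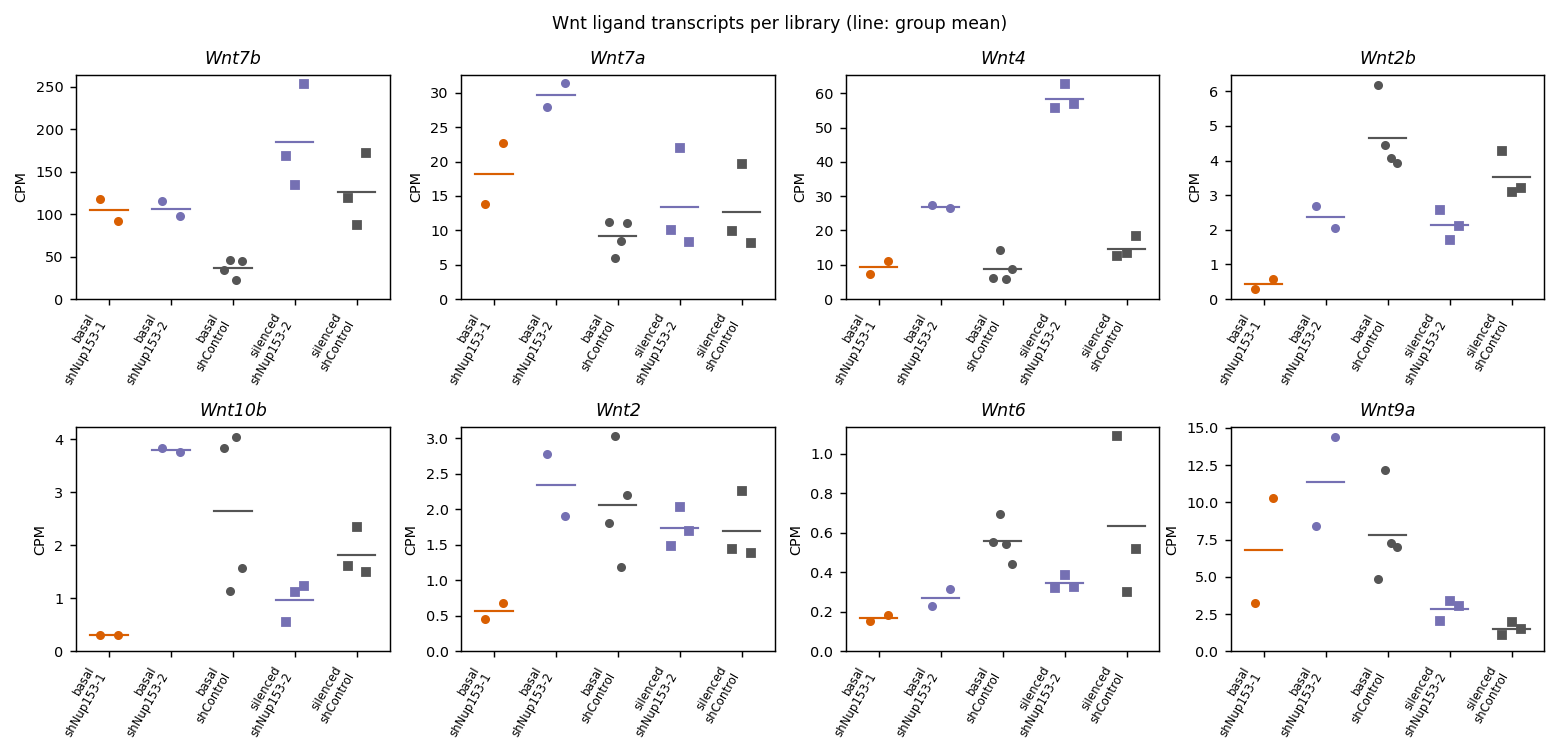
CPM of 8 Wnt ligands in each library (circles basal, squares silenced, line group mean). Wnt7b lies above basal shControl in both hairpins' basal libraries, Wnt4 is high in the shNup153-2 groups, and Wnt2b, Wnt10b, Wnt2 and Wnt6 are lowest in basal shNup153-1 cultures.

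Among the receptors, Fzd1 fell with shNup153-1. This receptor of canonical Wnt signals had 7.63 and 10.2 CPM with shNup153-1, against 26.8, 24.1, 19.9 and 24.8 CPM with shControl, without overlap (log2 fold change −1.44, SE 0.22, edgeR adjusted p = 0.00606). With shNup153-2 it had 19.2 and 15.8 CPM, also below every shControl library, with a log2 fold change of −0.45 (SE 0.20) that did not pass (edgeR adjusted p = 0.187).

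Fzd3 had 81.5 and 177 CPM with shNup153-1 and 351 and 314 CPM with shNup153-2, against 322, 164, 197 and 129 CPM with shControl. With each hairpin 1 library lay inside the shControl range, and neither hairpin passed (edgeR adjusted p = 0.323 and 0.206). Fzd7, a receptor of canonical signals in stem and progenitor cells, had 11.3 CPM in both shNup153-1 libraries and 15.6 and 15.1 CPM with shNup153-2, against 13.4, 12.7, 15.3 and 13.6 CPM with shControl, and passed with neither (edgeR adjusted p = 0.287 and 0.598). None of the other tested Frizzled genes passed at basal state in these fits, their log2 fold changes running from −1.01 for Fzd9 to 1.12 for Fzd6 with shNup153-1 and from −0.26 for Fzd10 to 1.68 for Fzd6 with shNup153-2. With shNup153-2, Fzd6 had an edgeR adjusted p of 0.0691. It passed when the replicate number was a block (log2 fold change 1.98, edgeR adjusted p = 0.0179), but that run kept replicates 1 and 2 only. Nothing is read from that call, since basal replicate numbers were not taken as pairs.

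Lrp6 had 33.5 and 70.4 CPM with shNup153-1 and 75.1 and 72.2 CPM with shNup153-2, against 94.0, 43.5, 81.7 and 56.1 CPM with shControl. Lrp5 had 3.63 and 14.2 CPM with shNup153-1 and 18.8 and 21.8 CPM with shNup153-2, against 17.1, 5.67, 14.4 and 9.27 CPM with shControl. Neither co-receptor passed at basal state with either hairpin (log2 fold changes −0.43 and 0.10 for Lrp6, −0.40 and 0.80 for Lrp5, edgeR adjusted p = 0.212 to 0.852), and both were higher in shControl replicates 1 and 3 than in 2 and 4.

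The antagonist Sfrp4 rose with both hairpins. It had 3.13 and 7.11 CPM with shNup153-1 and 2.89 and 2.80 CPM with shNup153-2, against 0.821, 0.512, 1.48 and 0.848 CPM with shControl. Every knockdown library was above every shControl library, with log2 fold changes of 2.45 (SE 0.45, edgeR adjusted p = 0.0111) with shNup153-1 and 1.63 (SE 0.40, edgeR adjusted p = 0.0430) with shNup153-2. Dkk2, a Dickkopf protein that binds Lrp6, was at most 0.186 CPM in every library outside the basal shNup153-2 group. It had 21 and 33 counts with shNup153-2, against 3, 0, 4 and 0 counts with shControl. Its adjusted p was 0.0322 by edgeR, but it entered the test through the shNup153-2 libraries alone, so it had to be higher there to be tested. With shNup153-1 it had 0 and 6 counts.

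Dkk3, a divergent Dickkopf protein, was the antagonist with the highest level and had 18.1 and 42.8 CPM with shNup153-1 and 40.7 and 47.1 CPM with shNup153-2, against 37.0, 17.5, 28.1 and 26.8 CPM with shControl. Sfrp1 had 10.8 and 15 CPM with shNup153-1 and 31.2 and 25.1 CPM with shNup153-2, against 28.1, 15.1, 19.1 and 20.2 CPM with shControl. Sfrp2 had 4.69 and 4.30 CPM with shNup153-1 and 5.30 and 2.67 CPM with shNup153-2, against 9.04, 4.46, 5.01 and 10.9 CPM with shControl. None of the 3 passed with either hairpin (edgeR adjusted p = 0.137 to 0.865). Sfrp1 was below all shControl libraries with shNup153-1, whereas Dkk3 was above them all with shNup153-2.

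Axin2, a scaffold of the beta-catenin destruction complex that the pathway itself induces, had 11.4 and 19.8 CPM with shNup153-1 and 18.0 and 18.9 CPM with shNup153-2, against 15.9, 16.5, 19.4 and 14.5 CPM with shControl. Its log2 fold change was −0.11 (SE 0.25, edgeR adjusted p = 0.818) with shNup153-1 and 0.15 (SE 0.19, edgeR adjusted p = 0.62) with shNup153-2. Tcf7 had 0.840 and 1.11 CPM with shNup153-1 and 1.49 and 1.39 CPM with shNup153-2, against 0.928, 1.75, 1.21 and 1.45 CPM with shControl, and passed with neither (edgeR adjusted p = 0.455 and 0.852). The groups overlapped for both genes, and Lef1 was at or below 0.110 CPM in all basal libraries.

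**Figure D4:**
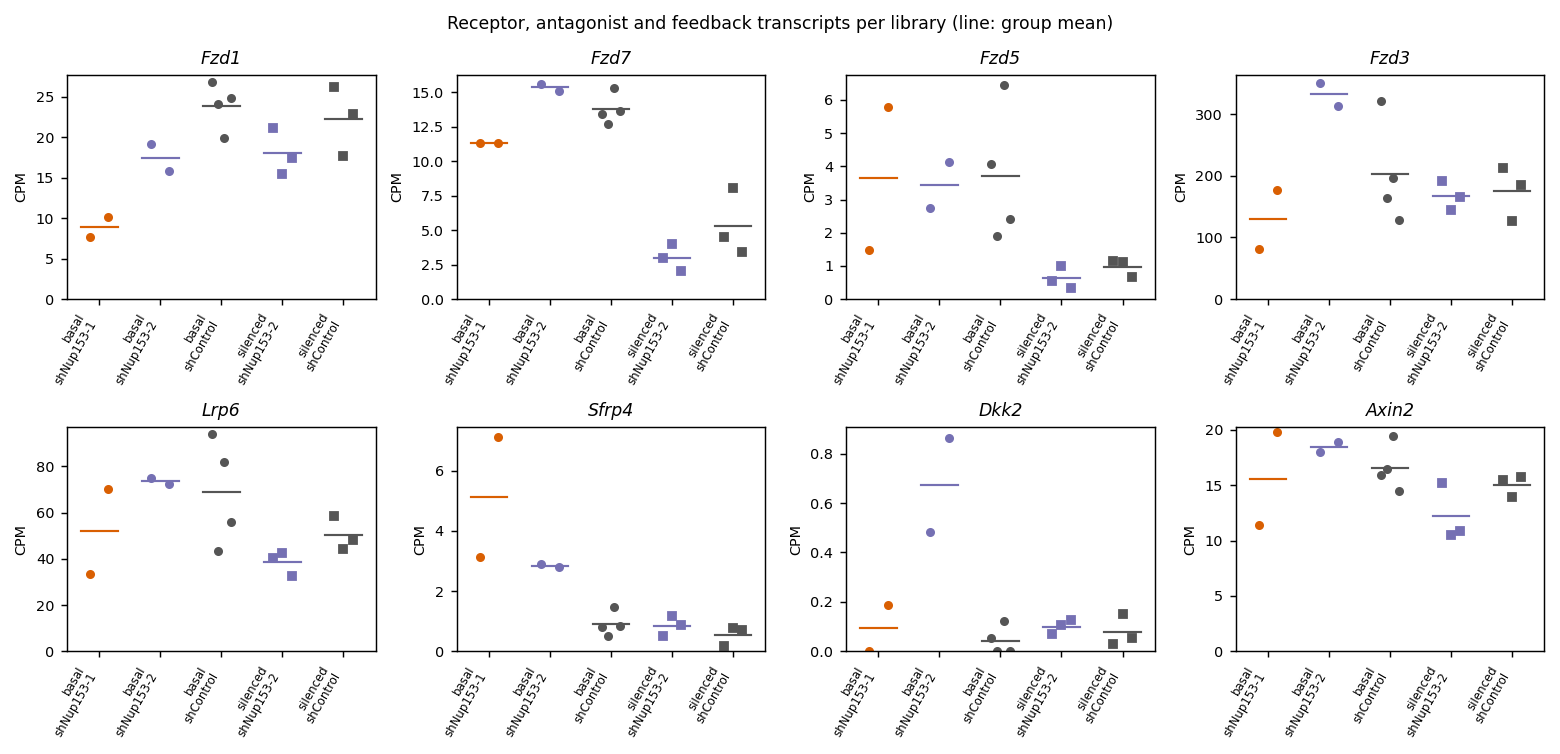
CPM of receptors, antagonists and Axin2 in each library (circles basal, squares silenced, line group mean). Fzd1 is lowest with shNup153-1, Sfrp4 is highest in the basal knockdown libraries, and Fzd7 and Fzd5 are lower in silenced than in basal libraries.

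The basal calls with shNup153-2 rest on both of its libraries: without replicate 1 or without replicate 2, none of the 5 passed (edgeR adjusted p = 0.103 to 0.276 for the 4 still tested). Sfrp4 and Dkk2 were also lost without shControl replicate 1 (0.0644 and 0.0510), Wnt4 without shControl replicate 3 (0.0519), and these 3 without shControl replicate 4 (0.0675 to 0.112), which left 2. With shNup153-1, Wnt7b, Wnt10b and Fzd1 were lost without its replicate 1 (0.0614 to 0.124), along with Wnt2 and Wnt6, which left 2. Likewise, Sfrp4 and Wnt10b were lost without its replicate 2 (0.0862 and 0.0935), along with Wnt2 and Wnt6, which left 3.

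Other cell types moved with the groups. Oligodendrocyte lineage markers summed to 761 and 771 CPM with shNup153-1, beside 243 to 368 CPM with shNup153-2 and 112 to 276 CPM with shControl, and 7 of 9 tested markers rose with shNup153-1 and none of 7 with shNup153-2. Endothelial markers, 4 of 6 of them in the tables, summed to 1.37 to 1.89 CPM with shNup153-1 and 2.71 to 3.22 CPM with shNup153-2, against 4.92 to 16.5 CPM with shControl; of 3 tested, 2 fell with shNup153-1 and 1 with shNup153-2. Astrocyte markers ranged from 876 to 2540 CPM with shNup153-1 and from 2000 to 2310 CPM with shNup153-2, against 356 to 2180 CPM with shControl. GABAergic markers summed to 1420 to 2200 CPM with shNup153-1 and 1190 to 1240 CPM with shNup153-2, against 705 to 1290 CPM with shControl, and 1 of 6 (Slc32a1) rose with shNup153-1. Radial glia and progenitor markers summed to 650 to 670 CPM with shNup153-1 and 418 to 712 CPM with shNup153-2, against 246 to 425 CPM with shControl; Vim rose with shNup153-1 and Hes5 fell with both. Mural markers summed to 30.5 to 36.8 CPM with shNup153-1 and 15.6 to 16.4 CPM with shNup153-2, against 7.49 to 23.5 CPM with shControl, and none of 3 tested passed. Fibroblast and meningeal markers summed to 2.72 to 4.12 CPM with shNup153-1 and 7.31 to 12.9 CPM with shNup153-2. With shControl they summed to 2.29 to 8.92 CPM. Their median log2 fold change was −1.51 with shNup153-1 and 1.18 with shNup153-2, and of 5 tested, Col1a1 rose with shNup153-2. Of 3 tested choroid plexus markers, Kl fell with shNup153-1. Of 6 excitatory neuron markers, Slc17a6 fell with both hairpins (log2 fold change −0.93 with shNup153-1 and −2.03 with shNup153-2) and Tbr1 with shNup153-1 (−1.20). Their part in the changes of Wnt ligands, Sfrp4 and Fzd1 was not tested.

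In silenced neurons, Wnt4 was the single gene of the group past the threshold with shNup153-2. It had 55.8, 62.6 and 56.8 CPM with shNup153-2, against 12.5, 13.3 and 18.3 CPM with shControl. The groups stood far apart, with a log2 fold change of 2.01 (SE 0.17, edgeR adjusted p = 0.00621), so Wnt4 passed with shNup153-2 in both states. It was 1 of 30 genes tested (3.33%), beside 3.17% of 19846 genes, and the median log2 fold change of the group was 0.09, against 0.01 over all genes. The call was lost without shControl replicate 1 (edgeR adjusted p = 0.0528) and without shNup153-2 replicate 1 (0.0643).

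Silenced libraries of the same replicate number deviated together from their group means, with correlations of 0.27, 0.55 and 0.59, so the numbers were taken to pair the samples. Libraries of different number had correlations of −0.57 to 0.06. Deviations cancel within a group, so part of this contrast is forced. With the replicate as a block, 8 of the 30 genes passed (6 rose and 2 fell), beside 21.0% of all genes, of which 11.2% rose and 9.80% fell. Wnt4 kept its call (log2 fold change 2.02, adjusted p = 0.000468). Wnt7b had 169, 134 and 253 CPM with shNup153-2, against 119, 87.5 and 172 CPM with shControl, a ratio of 1.42, 1.53 and 1.47 within the pairs. The groups overlap and the unblocked test did not pass (edgeR adjusted p = 0.365), but the blocked one did (log2 fold change 0.58, edgeR adjusted p = 0.00198).

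Wnt10a had 1.34, 1.12 and 0.827 CPM with shNup153-2, against 0.324, 0.392 and 0.136 CPM with shControl, without overlap (log2 fold change 1.97, edgeR adjusted p = 0.0613 unblocked and 0.00720 blocked). Wnt3 had 2.01, 1.44 and 2.05 CPM, against 1.00, 0.513 and 1.19 CPM with shControl (edgeR adjusted p = 0.171 unblocked and 0.0225 blocked). Wnt9a had 2.03, 3.40 and 3.06 CPM, against 1.12, 1.99 and 1.49 CPM with shControl (0.172 and 0.0159). These ligands were higher in 3 of 3 pairs, as were Wnt4, Wnt7b and Dkk3. Pairs were compared only for genes that the blocked test called, here and below, so their directions add nothing to that test. Where the groups do not overlap, any pairing gives the same direction. Wnt2b had 2.56, 1.72 and 2.10 CPM with shNup153-2, against 4.27, 3.08 and 3.20 CPM with shControl, and was lower in every pair (log2 fold change −0.70, edgeR adjusted p = 0.175 unblocked and 0.0278 blocked).

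Of the antagonists, Dkk3 had 65.5, 66.5 and 27.9 CPM with shNup153-2 in silenced cultures, against 39.3, 59.6 and 18.4 CPM with shControl (edgeR adjusted p = 0.649 unblocked and 0.0166 blocked). Of the receptors, Fzd7 had 2.97, 3.96 and 2.05 CPM with shNup153-2, against 4.53, 8.03 and 3.39 CPM with shControl, and was lower in every pair (0.312 unblocked and 0.0155 blocked). The groups of both genes overlap. Wnt7a, which rose with shNup153-2 at basal state, had 9.98, 22.0 and 8.29 CPM, against 9.97, 19.6 and 8.22 CPM with shControl, a log2 fold change of 0.12 (SE 0.46, edgeR adjusted p = 0.933). Sfrp4 had 0.507, 1.16 and 0.877 CPM, against 0.177, 0.785 and 0.706 CPM with shControl, and did not pass either (edgeR adjusted p = 0.623).

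Among the other abundant genes in silenced cultures, Fzd3 had 191, 144 and 166 CPM with shNup153-2, against 213, 127 and 185 CPM with shControl, and Fzd1 had 21.1, 15.5 and 17.5 CPM, against 26.2, 17.7 and 22.9 CPM with shControl. Both groups overlapped. Axin2 had 15.2, 10.5 and 10.9 CPM with shNup153-2, against 15.5, 13.9 and 15.7 CPM with shControl. Sfrp1 had 24.4, 23.9 and 28.0 CPM, against 31.6, 21.8 and 25.8 CPM with shControl. None of these passed with or without the block.

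Whether the shNup153-2 effect differed between silenced and basal cultures was tested as an interaction. None of 33 genes passed, beside 0.0282% of 21286 genes. DESeq2 and limma-voom also called 0 after adjustment. Wnt10a had a log2 difference of silenced minus basal effects of 1.70 (SE 0.59, edgeR adjusted p = 0.349), Fzd6 of −1.67 (SE 0.65, 0.384) and Wnt7a of −1.64 (SE 0.58, 0.359). Dkk2 entered this fit through the basal shNup153-2 libraries alone. For Wnt4 the difference was 0.32 (SE 0.42, edgeR adjusted p = 0.765). The loss of the Wnt7a and Sfrp4 calls in silenced cultures was therefore not shown to be a difference between the states.

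Silenced and basal cultures were also compared within each hairpin, to ask how transcripts of the pathway stood after activity blockade. The states are held in separate tables, so silencing cannot be told apart from other differences between those sets of libraries. In shControl cultures 8 of 33 genes passed (24.2%), beside 12.0% of 21286 genes; 1 of them was higher (6.14% of all genes) and 7 were lower (5.83%) in silenced cultures, and the median log2 fold change was −0.48. In shNup153-2 cultures 14 of 33 passed (42.4%), beside 21.1%; 1 was higher (8.77% of all genes) and 13 were lower (12.3%), with a median of −1.02. Wnt9a, Fzd5 and Fzd7 fell in both. Wnt16 passed in both as well, but it reached 10 counts in basal libraries only. Without the genes that did not reach 10 counts in both states (Wnt11, Wnt16 and Dkk2), 7 of 30 passed in shControl cultures (23.3%) and 12 of 30 in shNup153-2 cultures.

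Wnt7b was the 1 gene that rose with shControl, at 119, 87.5 and 172 CPM in silenced cultures, against 34.1, 45.6, 22.6 and 44.6 CPM in basal ones (log2 fold change 1.76, SE 0.29, edgeR adjusted p = 0.00346). In shNup153-2 cultures Wnt7b had 169, 134 and 253 CPM when silenced, against 115 and 97.9 CPM at basal state. That change did not pass (log2 fold change 0.75, SE 0.35, edgeR adjusted p = 0.132). Tested as an interaction, the silenced minus basal difference for Wnt7b was −1.01 (SE 0.44, edgeR adjusted p = 0.421). A smaller rise of Wnt7b with shNup153-2 than with shControl was therefore not shown. Wnt4 was the 1 gene that rose with shNup153-2, at 55.8 to 62.6 CPM in silenced cultures, against 27.3 and 26.6 CPM in basal ones (log2 fold change 1.07, SE 0.33, edgeR adjusted p = 0.0405). Its log2 fold change with shControl was 0.74 (SE 0.27, edgeR adjusted p = 0.0952).

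Wnt9a, a canonical ligand, had 1.12, 1.99 and 1.49 CPM in silenced shControl cultures, against 4.83, 12.2, 7.25 and 6.97 CPM in basal shControl cultures (log2 fold change −2.36, SE 0.36, edgeR adjusted p = 0.00275). With shNup153-2 it had 2.03 to 3.40 CPM in silenced cultures, against 8.39 and 14.4 CPM in basal ones (log2 fold change −2.07, edgeR adjusted p = 0.00575). Fzd7 had 4.53, 8.03 and 3.39 CPM in silenced shControl cultures, against 12.7 to 15.3 CPM in basal ones (log2 fold change −1.39, SE 0.29, edgeR adjusted p = 0.011). With shNup153-2 it had 2.05 to 3.96 CPM, against 15.6 and 15.1 CPM in basal cultures (log2 fold change −2.41, SE 0.34, edgeR adjusted p = 0.00126). Neither gene's silenced libraries reached any basal library of the same hairpin.

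Fzd5 had 1.15, 1.12 and 0.651 CPM in silenced shControl cultures, against 4.07, 1.90, 6.46 and 2.42 CPM in basal ones (log2 fold change −1.95, edgeR adjusted p = 0.0222). In shNup153-2 cultures it had 0.553, 0.982 and 0.326 CPM when silenced, against 2.75 and 4.14 CPM at basal state (log2 fold change −2.54, edgeR adjusted p = 0.0105). Of its exon bases, 17.8% overlap an antisense gene, and for Sfrp2, Wnt5a, Axin2 and Fzd6 the overlap is 16.1%, 4.6%, 3.8% and 3.2%, with the same limit on strand as for Wnt7b. The remaining genes lower in silenced shControl cultures were Fzd10 (0.0883 to 0.483 CPM, against 0.658 to 1.69 CPM in basal ones), Wnt5b (0.489 to 0.936 CPM, against 1.36 to 2.64 CPM), Wnt10a (0.136 to 0.392 CPM, against 0.475 to 0.910 CPM) and Wnt16 (0 to 0.0543 CPM, against 0.183 to 0.377 CPM), with log2 fold changes of −2.24, −1.40, −1.39 and −3.20 (edgeR adjusted p = 0.0182, 0.0288, 0.0428 and 0.0202). Wnt16 was tested through basal libraries alone, so nothing is read from its direction.

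In shNup153-2 cultures 4 Frizzled receptors and both co-receptors fell when silenced. Lrp6 fell, with 40.4, 42.5 and 32.7 CPM in silenced cultures, against 75.1 and 72.2 CPM in basal ones (log2 fold change −0.99, SE 0.28, edgeR adjusted p = 0.0283), and Lrp5 with 4.61, 9.57 and 4.79 CPM, against 18.8 and 21.8 CPM (−1.74, SE 0.42, 0.0158). Fzd3 had 191, 144 and 166 CPM in silenced cultures, against 351 and 314 CPM in basal ones (−1.04, SE 0.33, 0.0429), and Fzd6 0.622, 0.806 and 0.576 CPM, against 2.34 and 4.85 CPM (−2.48, SE 0.49, 0.00684). Each of these genes' silenced libraries lay below both basal libraries. With shControl the log2 fold changes of Lrp6, Lrp5, Fzd3 and Fzd6 were −0.47, −1.03, −0.24 and −0.81. None of these passed (edgeR adjusted p = 0.0874 to 0.629). No gene of the group passed the interaction, so changes in shNup153-2 cultures were not shown to differ from those with shControl. Axin2 had 15.2, 10.5 and 10.9 CPM in silenced cultures, against 18.0 and 18.9 CPM in basal ones (log2 fold change −0.65, SE 0.19, edgeR adjusted p = 0.0359).

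Among ligands and antagonists in the same comparison, Wnt5a, the best known ligand of beta-catenin-independent signals, had 9.89, 9.78 and 6.59 CPM in silenced cultures, against 25.7 and 21.7 CPM in basal ones (log2 fold change −1.49, SE 0.33, edgeR adjusted p = 0.0117). Wnt10b had 0.553, 1.12 and 1.23 CPM, against 3.83 and 3.77 CPM (−2.03, SE 0.52, 0.0205). Sfrp4 had 0.507 to 1.16 CPM, against 2.89 and 2.80 CPM (−1.81, 0.0346). No silenced library reached a basal one for any of these 3 genes. Wnt16 and Dkk2 also passed, at 0.0251 to 0.140 and 0.0692 to 0.125 CPM in silenced cultures, against 0.314 to 0.596 and 0.481 to 0.865 CPM in basal ones (edgeR adjusted p = 0.0204 and 0.0279). Both were tested through basal libraries alone, so nothing is read from their direction.

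**Figure D5:**
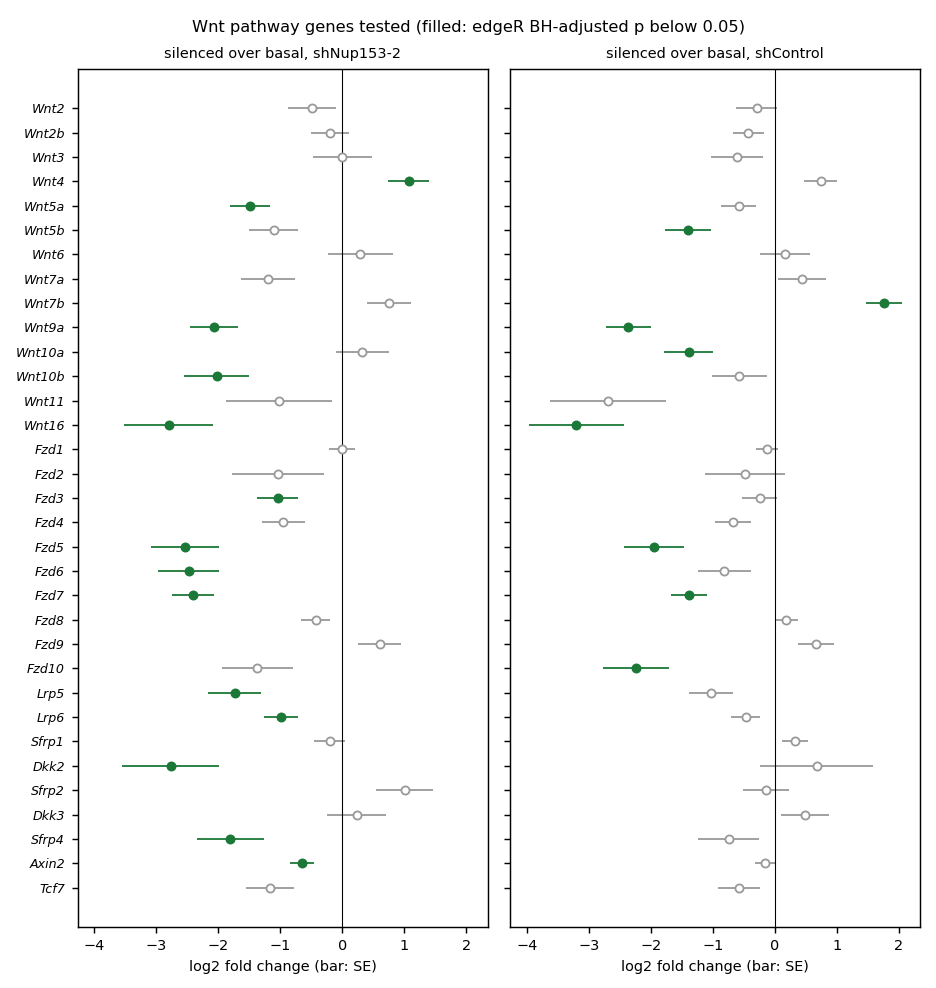
Log2 fold changes of silenced over basal cultures (bars SE) for shNup153-2 and shControl, with filled points past an adjusted p of 0.05. Most points lie left of 0, and Wnt9a, Wnt16, Fzd5 and Fzd7 are filled in both panels, Wnt16 with 10 counts reached in basal libraries only.

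The state comparisons leaned on single libraries. In shControl cultures, Wnt7b and Wnt9a passed with each of the 12 libraries of the fit left out in turn, and they were the only ones left without silenced shControl replicate 1; without silenced shControl replicate 3, 4 passed. In shNup153-2 cultures, Fzd7 alone passed with each library left out, and 4 and 1 genes passed without basal shNup153-2 replicate 1 and replicate 2, 6 without silenced shNup153-2 replicate 1 or 3. Cell-type markers moved as well. GABAergic markers summed to 453 to 522 CPM in silenced shNup153-2 cultures, against 1190 to 1240 CPM in basal ones, and to 414 to 462 CPM in silenced shControl cultures, against 705 to 1290 CPM in basal ones, where 4 of 6 fell. Astrocyte markers summed to 233 to 1060 CPM in silenced shNup153-2 cultures, against 2000 to 2310 CPM in basal ones, and to 209 to 982 CPM in silenced shControl cultures, against 356 to 2180 CPM in basal ones. Radial glia and progenitor markers summed to 89.0 to 294 CPM in silenced shNup153-2 cultures, against 418 to 712 CPM in basal ones, and to 90.7 to 390 CPM in silenced shControl cultures, against 246 to 425 CPM in basal ones. Proliferation markers summed to 8.09 to 71.4 CPM in silenced shControl cultures, against 0.604 to 6.13 CPM in basal ones, and to 32.8 to 61.8 CPM in silenced shNup153-2 cultures, against 2.22 to 2.73 CPM in basal ones, and all 4 rose in both. Cajal-Retzius markers summed to 36.1 to 58.8 CPM in silenced shNup153-2 cultures, against 206 to 377 CPM in basal ones, and to 29.3 to 44.7 CPM in silenced shControl cultures, against 108 to 291 CPM in basal ones, and 1 of 3 (Reln) fell in both. Of 10 oligodendrocyte lineage markers, 5 rose and 1 fell in shNup153-2 cultures and 3 rose in shControl cultures. Their part in the lower receptor and ligand levels was not tested.

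Of 74 other genes of the pathway, covering ligand secretion, R-spondins and their receptors, other co-receptors and antagonists, cytoplasmic and nuclear partners, planar polarity and common targets, 72 were in the tables. At basal state with shNup153-1, 4 of 68 tested rose and 10 fell, beside 6.41% and 6.94% of all genes; the number that rose is near that background. Porcn, the acyltransferase that makes Wnt ligands active, fell by 1.10 on the log2 scale, and Wls, which carries them to the cell surface, rose by 0.73. The R-spondins Rspo1 and Rspo2, secreted enhancers of Wnt signals, fell by 3.17 and 1.93, and their receptor Lgr4 fell by 1.11. Rnf43, a ubiquitin ligase that removes Frizzled receptors, rose by 1.73, and Tcf7l1, a Tcf factor that mostly represses, rose by 2.19.

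With shNup153-2 at basal state, 7 of 68 rose and 3 fell, beside 5.64% and 3.46% of all genes; the number that fell is near that background. Dvl3, the Dishevelled protein that relays the Frizzled signal, rose by 1.27, Kremen1, a Dickkopf receptor, by 1.35, and Celsr2 and Prickle1 of the planar polarity pathway by 1.42 and 1.01. Porcn fell by 0.89 and the co-repressor Tle1 by 1.10, and these fell with shNup153-1 too, Tle1 by 1.30. Nlk was the other gene that fell with shNup153-2 at basal state, and Amer1 was among those that fell with shNup153-1. In silenced cultures, 2 of 67 rose with shNup153-2 (Vangl1 by 1.22, Pygo2 by 0.49) and 2 fell (Nlk by 0.93, Amer1 by 1.40), beside 1.48% and 1.69% of all genes. With the replicate block, 12 rose and 8 fell, beside 11.2% and 9.80% of all genes, these 4 among them. The median log2 fold changes of the 74-gene list were −0.13 with shNup153-1, 0.20 with shNup153-2 and 0.07 with shNup153-2 in silenced cultures, against −0.02, −0.03 and 0.01 over all genes. Of 10 tested common beta-catenin target genes, 1 rose with shNup153-1 (Rnf43) and none passed with shNup153-2 at basal state.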

How the data were processed

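Poly(A) RNA of 16 samples was sequenced and 14 libraries are used. Per the submitters' processing notes, reads were checked with FastQC and counted with featureCounts 2.0.1 on mm10; the deposited values are raw counts per gene, with no normalization by the authors. Aligner, annotation and strand setting were not given in the sources used here. Groups follow the sample titles, since some descriptions name the control virus for knockdown samples. In the basal table, 2 per-sample columns share 1 name and were not used. The shNup153-1 columns leave the common row order in the lower part of that table, so comparisons with shNup153-1 use lines 1 to 16399 of 26371. The silenced table lists 55304 symbols, and the shared ones hold 99.88% of its counts.

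Counts were tested with edgeR 4.0.16 (quasi-likelihood, TMM, 10 or more counts in at least 2 libraries of a fit, Benjamini-Hochberg over all genes tested), in R 4.3.3. DESeq2 1.42.0, limma 3.58.1 (voom), no filter, a replicate block and single libraries left out were alternatives. SE is the log2 fold change over the root of F. The basal shNup153-2 test leaves shNup153-1 out; the comparisons of states share 1 joint fit. Silenced replicate numbers were taken to pair the samples because every same-number correlation of deviations was above 0.1 (0.27, 0.55 and 0.59). The scripts were tested on simulated data. Values per library were given for genes past the threshold in any comparison and for the 3 most abundant of each role. The genes and lists were chosen with earlier results of these data known. Exon lengths and antisense overlaps come from the GENCODE annotation of mm10. Each replicate is 1 litter, so p-values of the tests without a block measure the spread between litters. Those with the replicate block measure the spread left after differences between replicate numbers are taken out.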

Additional observations from a re-analysis of the deposited data

Results flagged for a closer look

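Wnt3 stood at 0.475 CPM in basal shControl replicate 2, apart from 1.54 to 1.75 CPM in the other shControl libraries. Its gap to the nearest of them was 0.834 of the group's range, above the limit of 0.829 for 4 samples. Of 37 such groups looked at, 1 was set apart in this way, and chance does so for about 1 in 20.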

How the results depend on the processing

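No gene turned its direction in a called comparison under any alternative run; over single genes and settings, 149 values lost their call, 10 gained one and 581 kept their side of the threshold. The main counts of genes past the threshold were 7 for shNup153-1 and 5 for shNup153-2 against shControl at basal state, 2 between the hairpins, 1 for silenced shNup153-2, 8 and 14 for silenced over basal shControl and shNup153-2, and 0 for the interaction. DESeq2 gave 8 for basal shNup153-2, 10 between the hairpins and 2 in silenced cultures. The 8 held Wnt5a, Fzd6 and Wnt2b besides the 5 of the main test, and Wnt2b was lower (log2 fold change −0.98, DESeq2 adjusted p = 0.0226). For shNup153-1 DESeq2 added Wnt3, Wnt7a and Fzd9 and lost Wnt6. Wnt4 was among the 10 between the hairpins (DESeq2 adjusted p = 0.0113). Without a filter on low counts, and in the joint fit of both states, silenced cultures gave 2. With a replicate block, silenced cultures gave 8. At basal state, shNup153-1 replicate 1 deviated together with shControl replicates 2 and 4 (correlations 0.64 and 0.37). Its replicate 2 did so with shControl replicates 1 and 3 (0.57 and 0.53), as a mirror image, since the group has 2 libraries. Same-number correlations were 0.23 and 0.05 for shNup153-2 and −0.57 and −0.64 for shNup153-1, so basal replicate numbers were not taken as pairs. A block on those numbers, possible for replicates 1 and 2 only, gave 6 for shNup153-2 (the 5 of the main test and Fzd6), 0 for shNup153-1, 0 between the hairpins, 1 for silenced over basal shControl and 2 for silenced over basal shNup153-2, with fewer samples in the fit. With single libraries left out, the counts ran from 2 to 7 for shNup153-1, 0 to 5 for basal shNup153-2, 0 to 6 between the hairpins, 0 to 1 for silenced shNup153-2, 2 to 11 for shControl states, 1 to 16 for shNup153-2 states, and 0 to 0 for the interaction. The cause of these shifts was not tested.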
